A study of Mus musculus with 4 samples.

Results

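The 9 genes described here are homeobox transcription factor genes that mark regions of the inner ear, most of them in the vestibular part or in the non-sensory walls: Otx1, Otx2, Hmx2, Hmx3, Gbx2, Dlx5, Dlx6, Msx1 and Msx2. They were chosen by their Ensembl gene IDs, with earlier results of these data known, and all 9 were present among the 23879 genes of the table. The cochlea, which houses the organ of hearing, was taken whole and compared between N-myc ko and wild-type mouse embryos at embryonic day 15, with 2 arrays for each genotype. Both groups were of mixed 129/Sv and CD-1 background, and no treatment was applied. The sources used here do not give the design of the N-myc allele, any Cre driver or the sex of the embryos. Nor do they say how many embryos went into each sample. The p-values therefore speak only for these 4 samples. The limma fit also takes part of each gene's spread from the other genes. The study asked which genes differ in level when N-myc, a transcription factor of the MYC family, is mutated.

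Homeobox genes of this kind divide the otocyst, the epithelial vesicle that forms the inner ear, into territories. Dorsal factors such as Hmx2, Hmx3, Dlx5 and Gbx2 are needed in the mouse for the semicircular canals and the endolymphatic duct, whereas Otx1 and Otx2 act in lateral and ventral territories. In the cochlear duct Otx2 is known in the mouse as a gene of the non-sensory roof that becomes Reissner's membrane, where it keeps sensory fate in check. N-myc binds DNA as a dimer with MAX, for which CACGTG is the best known recognition sequence.

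The stretches of 250 bases before the transcription start are shown for Otx2, Hmx3 and Gbx2. Otx2 had the widest change, and Hmx3 was the other gene that kept a lower call after the arrays were rescaled. Gbx2 was the only one whose listed stretch holds CACGTG. For Otx2, the stretch shown is 1 of 4 listed, that of the start farthest upstream. Sequences are RefSeq's, build GRCm38.p6, 5′ to 3′ on the strand of the gene, and capitals mark CACGTG, or else TAATTA, a core sequence that many homeodomains bind.
Otx2, chr14:48667645-48667894, minus strand: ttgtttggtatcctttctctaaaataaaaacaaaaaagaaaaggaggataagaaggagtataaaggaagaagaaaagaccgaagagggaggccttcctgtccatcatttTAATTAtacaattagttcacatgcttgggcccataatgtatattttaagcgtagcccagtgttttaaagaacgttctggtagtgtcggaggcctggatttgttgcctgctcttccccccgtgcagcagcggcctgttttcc
Hmx3, chr7:131542713-131542962, plus strand: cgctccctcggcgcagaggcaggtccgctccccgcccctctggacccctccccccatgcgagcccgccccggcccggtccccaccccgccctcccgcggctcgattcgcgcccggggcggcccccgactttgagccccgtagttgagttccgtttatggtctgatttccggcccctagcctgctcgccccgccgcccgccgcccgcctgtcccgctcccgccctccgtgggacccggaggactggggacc
Gbx2, chr1:89931177-89931426, minus strand: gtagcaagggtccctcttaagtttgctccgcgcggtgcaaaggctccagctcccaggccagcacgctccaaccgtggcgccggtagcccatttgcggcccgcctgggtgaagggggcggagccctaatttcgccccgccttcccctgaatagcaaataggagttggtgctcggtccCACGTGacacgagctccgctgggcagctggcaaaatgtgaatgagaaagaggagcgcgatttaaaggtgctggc
RefSeq's promoter table held 10 such stretches for 6 of the 9 genes, with several alternative starts for Otx2 (4) and Hmx2 (2), and it was searched by symbol. Otx1, Dlx5 and Dlx6 had no stretch listed. CACGTG, which reads the same on both strands, occurred in 1 of the 10, that of Gbx2, starting 74 bases before the transcription start. Over all 32851 promoter stretches of this length 6.02% held it. TAATTA, also the same on both strands and picked after the stretches had been seen, occurred in 3 of the 10 (2 of the 4 of Otx2 and that of Msx2), and in 4.84% of all stretches. The motifs did not overlap in any of these stretches. These matches describe letters in a short window and say nothing of binding.

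Values are the authors' RMA expression values on the log2 scale, so a difference of 1 is 2-fold. Levels of different genes are not compared, since each rests on its own probes. A gene was called changed where limma gave an adjusted p no higher than 0.14, which is the limit on the false discovery rate in the design text. By that rule 4 of the 9 genes (44.4%) were called, 2 higher (Dlx6 and Gbx2) and 2 lower (Otx2 and Hmx3) in N-myc ko cochleae. Over all genes the rule called 34.7%, with 14.9% higher and 19.8% lower. The family was therefore called at a share near that of the whole table, and its median log2 change was 0.074 against -0.030 for all genes. Otx2 was the only member with a change of at least 2-fold, and 0.369% of all genes were called and at least 2-fold lower. The other 8 genes differed by at most 1.29-fold in either direction.

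**Figure D1:**
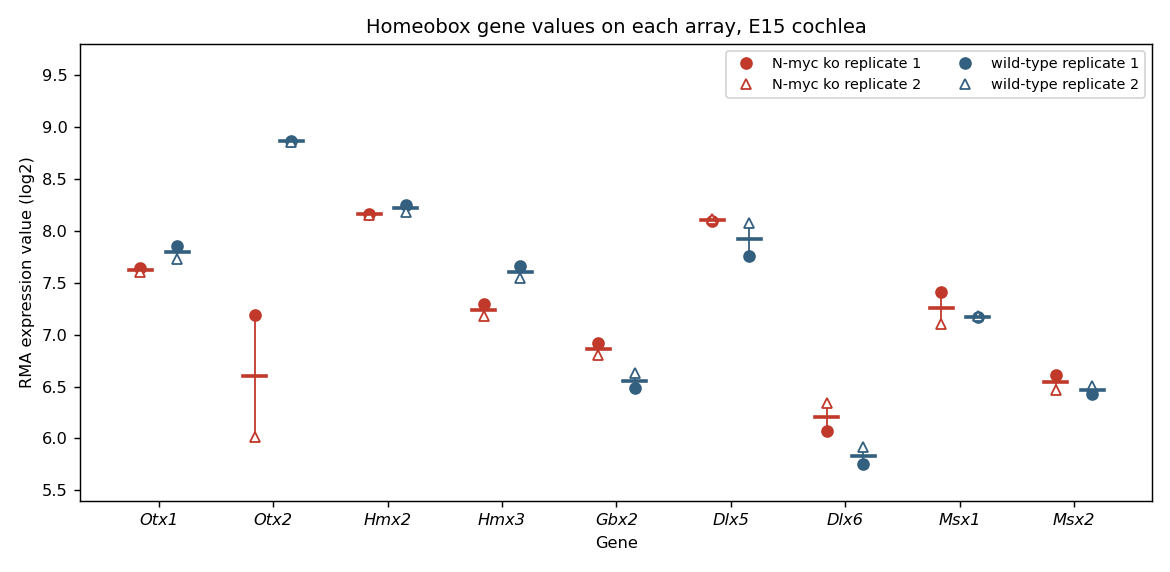
RMA expression values (log2) of the 9 genes on each array, with N-myc ko on the left and wild-type on the right of each gene, circles for replicate 1, triangles for replicate 2 and a short bar at the mean. Otx2 stands out, with 7.19 and 6.01 on the N-myc ko arrays against 8.86 on both wild-type arrays, while the other genes differ by less than 0.4 between the group means.

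Otx2 (ENSMUSG00000021848) had log2 values of 7.19 and 6.01 in N-myc ko cochleae, against 8.86 and 8.86 in wild-type cochleae. Both N-myc ko arrays lay far below both wild-type arrays, and the groups did not overlap. The means were 6.60 ± 0.83 in N-myc ko and 8.86 ± 0.0033 in wild-type cochleae (SD, n = 2 each), which put Otx2 at a level 4.79-fold lower in mutant than in wild-type tissue (log2 change -2.26 with SE 0.34, 95% interval -3.09 to -1.43, limma adjusted p = 0.019). This was the rank 7 fall among 23879 genes, and the rank 18 change of any sign. Part of the spread behind the SE, interval and p came from the other genes (2 residual and 4.33 borrowed degrees of freedom). They thus do not rest on the Otx2 values of these samples alone. In whole tissue, fewer cells that express a gene and less of its RNA per cell cannot be told apart.

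The size of the Otx2 fall differed between the mutant samples. The N-myc ko replicates differed by 1.18 on the log2 scale, a gap reached by only 11 genes of the table with Otx2 counted among them (0.046%), whereas the wild-type replicates differed by 0.0047. Without N-myc ko replicate 2, the lower array, Otx2 was 3.19-fold lower (log2 change -1.67, limma adjusted p = 0.0071). Without N-myc ko replicate 1 it was 7.20-fold lower (log2 change -2.85, limma adjusted p = 0.0011). Leaving out wild-type replicate 1 or 2 kept the change at -2.26, with limma adjusted p-values of 0.059 and 0.062. Otx2 was thus called at the 0.14 limit in each of these fits, but its fold depended on which mutant array was left out. The fits with 1 array in a group take that array's spread from the other group. Without a mutant array, the spread of Otx2 itself came from the wild-type pair, with its gap of 0.0047. Those p-values thus leave out the gap of 1.18 between the mutant samples.

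Otx1 (ENSMUSG00000005917), the close relative of Otx2 that is needed in the mouse for the lateral semicircular canal, had values of 7.64 and 7.60 in N-myc ko cochleae, against 7.86 and 7.73 in wild-type cochleae. The N-myc ko arrays were both lower, by a small margin, and the change was not called (log2 change -0.17, SE 0.096, 95% interval -0.40 to 0.058, limma adjusted p = 0.25). Its fold, with wild-type 1.13 times as high as N-myc ko, left an interval that includes 0 on the log2 scale. The difference between the genes was examined directly as Otx2 minus Otx1 on each array. It was -0.46 and -1.59 in N-myc ko cochleae, against 1.007 and 1.13 in wild-type cochleae, a difference of -2.09 between the genotypes on the log2 scale. The groups did not overlap, and the p of 0.333 in the two-sided exact permutation test over samples is the smallest that 2 arrays against 2 can give.

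Hmx2 and Hmx3 are neighbouring genes of the Nkx5 type, which act together in the mouse in vestibular morphogenesis; no gene lies between them in the RefSeq table. Hmx3 (ENSMUSG00000040148) had values of 7.29 and 7.18 in N-myc ko cochleae, against 7.66 and 7.55 in wild-type cochleae. Both N-myc ko arrays were lower and the gene was called, at a small size (log2 change -0.37, SE 0.099, 95% interval -0.60 to -0.13, limma adjusted p = 0.055). In linear terms Hmx3 was 1.29-fold lower in N-myc ko. Hmx3 missed the limit without N-myc ko replicate 2 (log2 change -0.31, limma adjusted p = 0.16) and without wild-type replicate 1 (log2 change -0.31, limma adjusted p = 0.18).

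Hmx2 (ENSMUSG00000050100) had values of 8.17 and 8.15 in N-myc ko cochleae, against 8.25 and 8.19 in wild-type cochleae. The arrays of each genotype lay close together and the groups only just failed to overlap. The change was not called (log2 change -0.056, SE 0.090, 95% interval -0.27 to 0.16, limma adjusted p = 0.69), and its sign changed with the scaling, since quantile normalisation gave 0.12 and cyclic loess normalisation gave 0.10. Hmx3 minus Hmx2 was -0.87 and -0.97 in N-myc ko cochleae, against -0.59 and -0.64 in wild-type cochleae, a difference of -0.31 between the genotypes. These groups did not overlap either (two-sided exact permutation test, p = 0.333, the smallest possible).

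**Figure D2:**
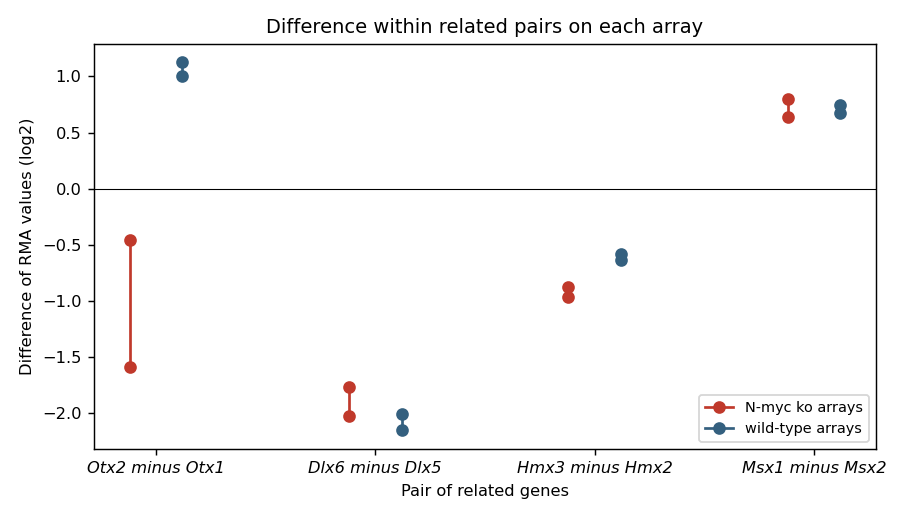
Difference of the RMA values (log2) of 4 pairs of related genes on each array, N-myc ko in red on the left and wild-type in blue on the right of each pair; only the shift between the genotypes is interpretable, since the genes rest on different probes. Otx2 minus Otx1 and Hmx3 minus Hmx2 were lower on both N-myc ko arrays, whereas the arrays of the genotypes interleave for Dlx6 minus Dlx5 and Msx1 minus Msx2.

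Gbx2 (ENSMUSG00000034486), a factor of the dorsal otocyst needed in the mouse for the endolymphatic duct, had values of 6.92 and 6.81 in N-myc ko cochleae, against 6.48 and 6.63 in wild-type cochleae. Both N-myc ko arrays were higher, and the gene was called (log2 change 0.31, SE 0.10, 95% interval 0.062 to 0.56, limma adjusted p = 0.086). It was 1.24-fold higher in N-myc ko. Gbx2 missed the limit without N-myc ko replicate 1 (log2 change 0.25, limma adjusted p = 0.31), without wild-type replicate 1 (log2 change 0.24, limma adjusted p = 0.28) and after quantile normalisation (log2 change 0.18, limma adjusted p = 0.27). Gbx2 is the gene whose promoter stretch above carries CACGTG. No stretch was listed for Dlx6, and those of Otx2 and Hmx3 did not hold the motif. A link between the motif and the calls was not tested.

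Dlx5 and Dlx6 are adjacent distal-less genes that pattern the dorsal otocyst and the cartilages of the head in the mouse. Dlx6 (ENSMUSG00000029754) had values of 6.07 and 6.34 in N-myc ko cochleae, against 5.75 and 5.92 in wild-type cochleae. The groups did not overlap, and Dlx6 was called 1.29-fold higher in N-myc ko (log2 change 0.37, SE 0.13, 95% interval 0.067 to 0.67, limma adjusted p = 0.091). Dlx6 missed the limit without N-myc ko replicate 2 (log2 change 0.23, limma adjusted p = 0.29), without wild-type replicate 1 (log2 change 0.29, limma adjusted p = 0.28) and after quantile normalisation (log2 change 0.17, limma adjusted p = 0.46). The RefSeq table lists the noncoding genes Dlx6os1 and Dlx6os2 as overlapping Dlx6, and the sources used here do not say which transcript its probes read.

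Dlx5 (ENSMUSG00000029755) had values of 8.095 and 8.11 in N-myc ko cochleae, against 7.76 and 8.07 in wild-type cochleae. The N-myc ko arrays were both higher, but the wild-type replicates differed by 0.31 and the change was not called (log2 change 0.19, SE 0.12, 95% interval -0.11 to 0.48, limma adjusted p = 0.33). After quantile normalisation the values were 8.20 and 8.18 in N-myc ko cochleae, against 7.73 and 7.98 in wild-type cochleae, and Dlx5 was called higher (log2 change 0.33, SE 0.11, limma adjusted p = 0.13). After cyclic loess it was 0.32 and just missed the limit (limma adjusted p = 0.1403). Dlx6 minus Dlx5 was -2.03 and -1.77 in N-myc ko cochleae, against -2.01 and -2.16 in wild-type cochleae. These overlapped (difference 0.18, two-sided exact permutation test, p = 0.667).

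Msx1 and Msx2 respond to BMP signals and are active in mesenchyme and epithelium of the developing head. Msx1 (ENSMUSG00000048450) had values of 7.41 and 7.10 in N-myc ko cochleae, against 7.17 and 7.18 in wild-type cochleae. The wild-type arrays lay between the N-myc ko arrays, and the change was not called (log2 change 0.083, SE 0.12, 95% interval -0.22 to 0.38, limma adjusted p = 0.66). Msx2 (ENSMUSG00000021469) had values of 6.61 and 6.47 in N-myc ko cochleae, against 6.43 and 6.51 in wild-type cochleae. The groups overlapped here too, and the change was not called (log2 change 0.074, SE 0.0999, 95% interval -0.17 to 0.31, limma adjusted p = 0.63). Msx1 minus Msx2 was 0.80 and 0.64 in N-myc ko cochleae, against 0.74 and 0.68 in wild-type cochleae, a difference of 0.0097 (two-sided exact permutation test, p = 1). Over the 4 pairs examined the Benjamini-Hochberg adjusted exact p-values were 0.667 for Otx2 with Otx1 and for Hmx3 with Hmx2, 0.889 for Dlx6 with Dlx5 and 1 for Msx1 with Msx2. None could fall under 0.05 in this design.

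The groups did not overlap for 7 of the 9 genes, 3 higher and 4 lower in N-myc ko cochleae. The same held for 64.9% of all genes, with 28.8% higher and 36.2% lower, so this count does not set the family apart. At an adjusted p of at most 0.05, 1 of the 9 genes, Otx2, was called lower and 0 were called higher (Dlx6, Gbx2 and Hmx3 missed this limit), against 8.20% lower and 6.76% higher over all genes. Without adjustment all 4 called genes had a limma p under 0.05, but with 34.7% of all genes called the rule itself ensures this.

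Across the table the direction of change went with the mean log2 value of a gene. Each gene was therefore set beside the 500 genes nearest to it in mean value over the 4 arrays, as a description without a test. Otx2 changed by -2.26 where the 500 genes near it had a median of -0.12 and a central 95% from -0.70 to 0.73, and 0 of the 500 had a change as low. Its change beyond that median was -2.14, and lay between -2.73 and -1.42 with 1 array left out. Hmx3 changed by -0.37 against a median of -0.049 among its 500 genes, which left -0.32, and 74 of the 500 had a change at least as low. For these genes the change was thus nearly as large beyond their neighbours in mean value as before.

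The higher calls were smaller beyond such neighbours. Gbx2, at 0.31, had neighbours with a median of 0.15, which left 0.16, and 127 of the 500 had a change at least as high. Dlx6, at 0.37, had neighbours with a median of 0.18, which left 0.19, and 120 of the 500 had a change at least as high. Dlx5 had neighbours with a negative median change, -0.18, so that its 0.19 became 0.36, reached by 76 of the 500. For Hmx2 the neighbours' median of -0.20 left 0.14, for Otx1 the median of -0.12 left -0.056, for Msx1 the median of -0.016 left 0.099 and for Msx2 the median of 0.19 left -0.12. Apart from Otx2, all 8 genes lay within the central 95% of their neighbours. Between 39.0% and 46.6% of the neighbours of a member were themselves called.

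**Figure D3:**
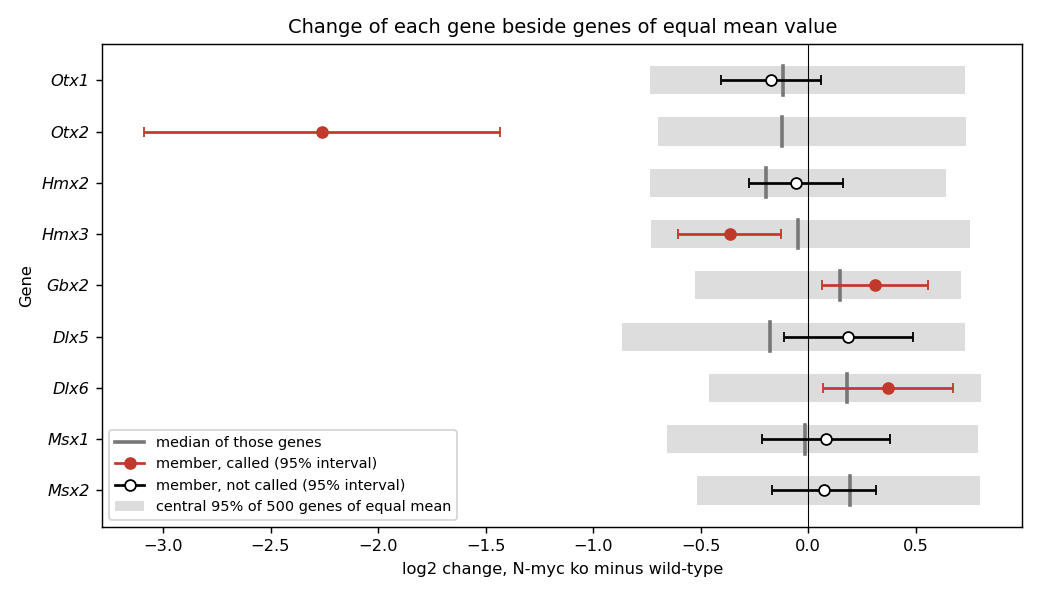
Log2 change (N-myc ko minus wild-type) of each gene with its 95% interval from limma, filled red where called, over a grey bar for the central 95% of the 500 genes nearest in mean value and a dark tick at their median. The whole interval of Otx2 lies below its grey bar, while the estimates of the other 8 genes lie inside theirs.

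**Figure D4:**
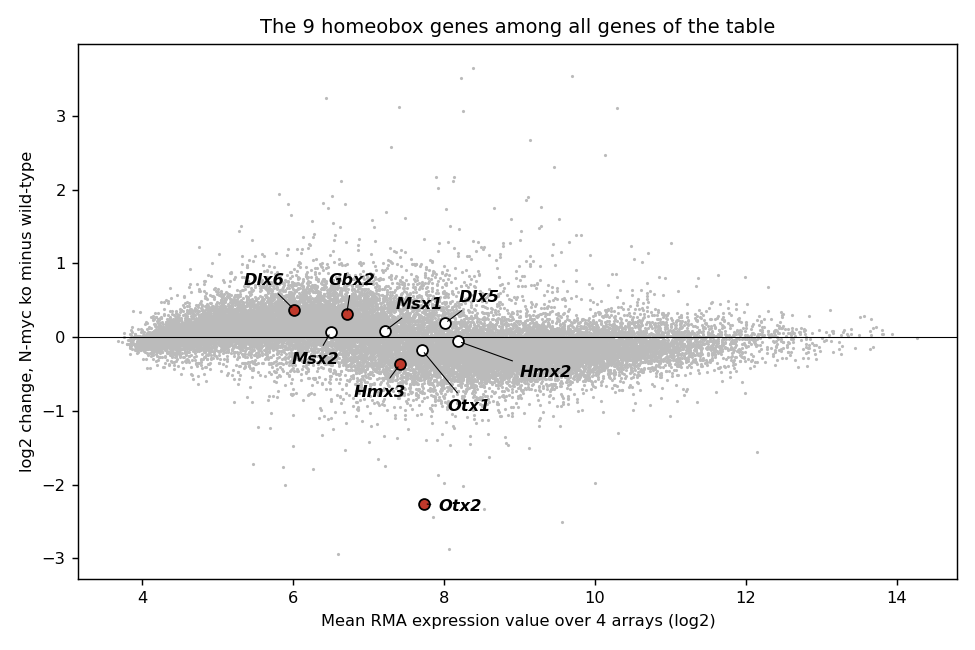
Log2 change (N-myc ko minus wild-type) against the mean RMA value (log2) over the 4 arrays, with a grey point for each of 23879 genes and the 9 homeobox genes as circles, red where called. Otx2, at -2.26, sits below the main cloud, and the other members sit within it. A few other genes lie lower still, since Otx2 is the rank 7 fall.

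Scaling decided part of the calls. After quantile normalisation, which gives all arrays the same distribution and under which 10.1% of all genes were called higher and 10.1% lower, Otx2 (log2 change -2.21, SE 0.35, limma adjusted p = 0.0296) and Hmx3 (log2 change -0.33, SE 0.095, limma adjusted p = 0.095) were called lower, Dlx5 was called higher, and Gbx2 and Dlx6 were not called. After cyclic loess normalisation, with 11.1% of all genes called higher and 9.70% lower, Otx2 (-2.18) and Hmx3 (-0.34) were called and no member was called higher. Among 12 alternative settings Otx2 was called in 12, with changes from -2.85 to -1.67. Hmx3 was called in 8 of the 11 settings that tested it, which include the 0.05 limit, and Dlx6 and Gbx2 were each called in 6 of 11. These settings include the authors' test, SAM, as rebuilt here with 6 label arrangements. The rebuilt test, not the authors' own run, called 14449 of the 23879 genes.

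**Figure D5:**
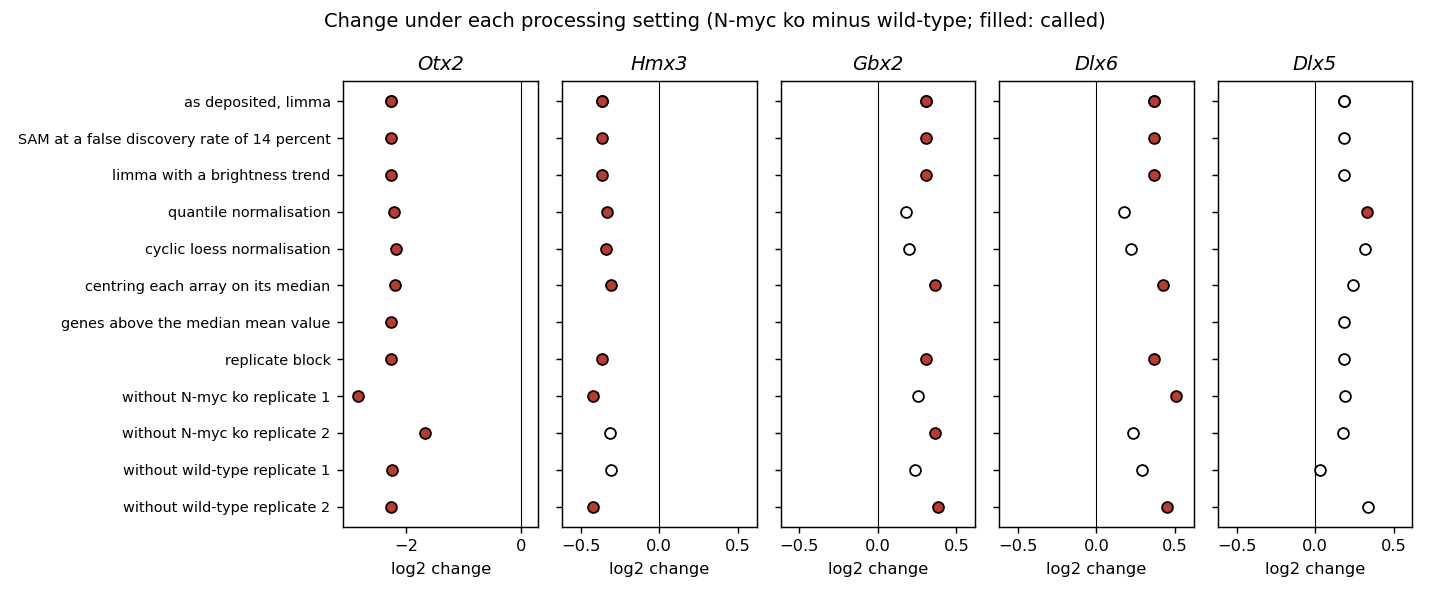
Log2 change (N-myc ko minus wild-type) of 5 genes under each setting that keeps the 0.14 limit, one row a setting, filled where called; the axis of Otx2 is wider than that of the other genes. Otx2 is called in all rows, Hmx3 in all but those without N-myc ko replicate 2 or wild-type replicate 1, and the calls of Gbx2 and Dlx6 are lost after quantile and cyclic loess normalisation and without wild-type replicate 1, that of Gbx2 also without N-myc ko replicate 1 and that of Dlx6 without N-myc ko replicate 2. Hmx3, Gbx2 and Dlx6 have no point in the row of the brighter genes, where they were not tested.

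By a fixed rule, the gene most like Otx2 in its values over the 4 arrays, each centred on its own mean, was sought among the 7427 genes within 1 of its mean. It was ENSMUSG00000026989, which the files and tables used here do not name, with a root mean square difference of 0.26. Its values were 7.59 and 7.14 in N-myc ko cochleae, against 9.72 and 9.66 in wild-type cochleae. For Dlx6, the widest rise, the most similar of 7241 genes was ENSMUSG00000051848 at 0.0087, and 294 genes lay within 0.1, whereas 0 genes came that close to Otx2. With 4 arrays many small changes look alike.

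Arrays of a genotype were the most alike, with Pearson's r across genes of 0.995 within N-myc ko and 0.995 within wild-type and 0.983 to 0.987 between genotypes. The lower quartiles of the arrays were 6.01 and 5.93 in N-myc ko and 5.76 and 5.79 in wild-type cochleae, and the upper quartiles 8.94 and 9.004 in N-myc ko and 9.14 and 9.18 in wild-type cochleae, so the values spread less in N-myc ko. The part of that narrower spread, or of any batch, in the small changes was not tested. The table carries Ensembl IDs without names, so the N-myc transcript, markers of the cochlea and of neighbouring tissues, and other genes of inner ear patterning were not analysed here.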

How the data were processed

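Total RNA of whole cochleae was amplified, biotinylated and hybridised, per the labels' protocols. The deposited values are on the log2 scale. Background correction, normalisation and the summary of probes into gene values were done by the authors with RMA, according to the design text, and with affy, per the submitters' processing notes; software versions, the array and its probe assignment were not given in the sources used here. Each of 23879 rows has 1 Ensembl ID; the reference table of 49997 genes paired 0 of them with a name, so the 144 symbols of the pathway and marker lists were not analysed here, and the 9 members were named by the symbols given with their IDs. Members and lists were chosen with earlier results of these data known.

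limma 3.58.1 in R 4.3.3 (lmFit, eBayes, two-sided) was fitted on all rows and 4 arrays, N-myc ko minus wild-type, with Benjamini-Hochberg adjustment over all rows. It had 2 residual degrees of freedom and borrowed 4.33. The number of arrays limits the precision. All members were to be described, with 1 most similar gene for the widest change in each direction. Alternatives were a 0.05 limit, the authors' test (SAM, rebuilt with 6 label arrangements), a brightness trend, 3 rescalings, the brighter genes alone, the replicate block, other numbers of neighbours (200 and 1000) and leaving out each array. The fits were tested on simulated data.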

Additional observations from a re-analysis of the deposited data

How the results depend on the processing

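The 8280 calls over all genes became 3572 at the 0.05 limit, 14449 with SAM, 4816 after quantile normalisation, 4962 after cyclic loess, 4757 in a test of the brighter genes, which are fewer, and ranged from 3151 to 6559 with 1 array left out. The 2 members called higher became 0 at the 0.05 limit, 1 after quantile normalisation (Dlx5), 0 after cyclic loess and 0 in the test of the brighter genes, where Dlx6 and Gbx2 were not tested, and ranged from 0 to 2 with 1 array left out. The 2 called lower became 1 at the 0.05 limit and 1 among the brighter genes, where Hmx3 was not tested, and ranged from 1 to 2 with 1 array left out. The SAM counts are those of the test as rebuilt here, not of the authors' run. The rebuilt test called 14449 of the 23879 genes, and it called Otx1 (-0.17) as well. The sign turned for Hmx2 (0.12 after quantile normalisation, 0.10 after cyclic loess), for Msx2 (-0.089 and -0.066 under the same settings) and for Msx1, which ranged from -0.071 without N-myc ko replicate 1 to 0.24 without N-myc ko replicate 2, none of them called. Beyond genes of equal mean, leaving out 1 array turned the sign for Dlx6 (-0.00095 without N-myc ko replicate 2 to 0.34 without N-myc ko replicate 1), Otx1 (-0.14 without wild-type replicate 2 to 0.056 without wild-type replicate 1) and Msx1 (-0.090 without N-myc ko replicate 1 to 0.25 without N-myc ko replicate 2). The sign held for Otx2 (-2.73 to -1.42), Hmx3 (-0.38 to -0.24), Gbx2 (0.12 to 0.25), Dlx5 (0.24 to 0.48), Hmx2 (0.10 to 0.20) and Msx2 (-0.16 to -0.058). With 200 or 1000 neighbours no member's change beyond its neighbours moved by more than the spread between replicates. The differences within pairs became -0.16 and -0.098 for Dlx6 minus Dlx5, -0.45 and -0.45 for Hmx3 minus Hmx2 and 0.16 and 0.13 for Msx1 minus Msx2 after quantile and cyclic loess normalisation, while that of Otx2 minus Otx1 moved by less than the replicate spread. The cause of these changes was not tested. The replicate numbers share no stated origin (arrays of one number deviate from their group means with a correlation of 0.12), and the replicate block gave 8835 calls with the same 4 members called, 2 higher and 2 lower. The planned counts over pathway and marker lists were not run.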
